A study of Mus musculus with 8 samples.

Results

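The regions described here are 6382 distal enhancer-type regions of the mouse genome at which cells without MLL3 and MLL4 had less H3K4me1 than wild-type cells in the formative state but not, at the same threshold, in the naive state. They were taken from 71118 intronic or intergenic regions that lay over 5 kb and at most 100 kb from the nearest transcription start site and had a value above 0 in all 4 H3K4me1 columns, out of 112137 regions in all. The rule asked for a log2 difference in H3K4me1, DKO minus WT, of at most -1 in formative cells and over -1 in naive cells. The members thus made up 8.97% of the eligible regions. Of the rest, 5660 met the threshold in both states, 9135 in naive cells only and 49941 in neither, and these are the sets used for comparison.

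Mouse embryonic stem cells in 4 groups were profiled for H3K27ac by CUT&Tag, a method in which a transposase is tethered to an antibody-bound chromatin mark, with 2 libraries in each group. Formative DKO cells carried MLL3KO_MLL4KO and were taken 63 h after LIF2i withdrawal, and formative WT cells of line R1 had the same withdrawal. Naive DKO and naive WT (R1) cells had none listed. No line or clone is named for the DKO cells, so a difference of clone cannot be told apart from the loss of both genes. The deposited table holds 1 pooled log2 value per group and region, so no SD or n can be given, and no difference that involves DKO cells has a replicate check or a test. Depth is unknown, because library totals are not in the columns used.

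The genes Kmt2c and Kmt2d encode MLL3 and MLL4, methyltransferases that place a single methyl group on lysine 4 of histone H3, chiefly at enhancers. H3K27ac, placed by the acetyltransferases p300 and CBP, is found at enhancers and promoters in use. On release from LIF and inhibitors, embryonic stem cells leave the naive state, shut down genes such as Esrrb and Klf2, and pass through a formative state marked by Fgf5 and Pou3f1 before they respond to cues such as Nodal and Wnt. The labels matched this in RNA: per the authors' deposited table, formative against naive WT cells had log2 folds of -3.98 for Esrrb, -2.93 for Klf2, 6.09 for Fgf5 and 5.24 for Pou3f1. In formative against naive DKO cells these folds were -2.07, -2.59, 5.75 and 5.19 in the authors' deposited table. Kmt2c and Kmt2d RNA had log2 folds of -0.91 and -0.84 in formative DKO against WT cells, per the authors' deposited table, and with the deleted exons unknown this does not check the knockout.

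The central 300 bases of 7 members are printed here because the results turn on them. Abra and Irak3 name the regions with the lowest and the highest formative H3K27ac difference among the 3006 members that were wide enough and had enough formative WT signal to be ranked. Nodal, Nkd1, Wnt3 and Car4 name regions near signalling and formative genes, and Klf5 names the region that fell most clearly between states in WT. The last 5 were chosen for printing after their values were seen. Coordinates are mm10, the sequences were read from the plus strand of the RefSeq genome of the same build, and capitals mark exact matches, on either strand, to the factor motifs spelled out further on.
Abra, chr15:41882805-41883104: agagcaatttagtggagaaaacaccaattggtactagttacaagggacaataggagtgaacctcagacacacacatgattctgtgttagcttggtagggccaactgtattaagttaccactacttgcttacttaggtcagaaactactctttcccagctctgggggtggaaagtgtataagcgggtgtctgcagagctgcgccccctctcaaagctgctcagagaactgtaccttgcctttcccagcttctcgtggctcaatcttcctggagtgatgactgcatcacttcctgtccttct
Irak3, chr10:120170669-120170968: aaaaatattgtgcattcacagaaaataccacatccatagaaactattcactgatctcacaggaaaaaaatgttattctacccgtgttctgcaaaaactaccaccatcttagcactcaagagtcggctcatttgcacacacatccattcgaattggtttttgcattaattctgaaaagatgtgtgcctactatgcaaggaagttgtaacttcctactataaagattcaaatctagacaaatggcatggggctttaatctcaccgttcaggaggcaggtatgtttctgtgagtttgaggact
Nodal, chr10:61402855-61403154: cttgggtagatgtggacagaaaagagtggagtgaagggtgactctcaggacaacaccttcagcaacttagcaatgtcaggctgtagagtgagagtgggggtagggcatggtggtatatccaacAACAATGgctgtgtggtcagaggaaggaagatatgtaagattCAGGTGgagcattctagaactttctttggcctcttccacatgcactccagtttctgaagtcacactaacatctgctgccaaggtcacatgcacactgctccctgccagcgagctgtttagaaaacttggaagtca
Nkd1, chr8:88441649-88441948: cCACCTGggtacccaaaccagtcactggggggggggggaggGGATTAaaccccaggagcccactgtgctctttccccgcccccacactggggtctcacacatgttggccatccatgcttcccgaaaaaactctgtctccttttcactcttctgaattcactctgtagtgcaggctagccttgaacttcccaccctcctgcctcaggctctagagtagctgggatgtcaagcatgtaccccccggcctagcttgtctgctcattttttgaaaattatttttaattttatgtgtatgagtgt
Wnt3, chr11:103859481-103859780: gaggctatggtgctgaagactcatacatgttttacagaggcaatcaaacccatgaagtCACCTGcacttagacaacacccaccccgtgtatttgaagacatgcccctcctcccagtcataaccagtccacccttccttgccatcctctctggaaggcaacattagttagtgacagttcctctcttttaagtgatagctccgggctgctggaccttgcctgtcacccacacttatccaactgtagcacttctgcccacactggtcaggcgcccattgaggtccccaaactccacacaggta
Car4, chr11:84971746-84972045: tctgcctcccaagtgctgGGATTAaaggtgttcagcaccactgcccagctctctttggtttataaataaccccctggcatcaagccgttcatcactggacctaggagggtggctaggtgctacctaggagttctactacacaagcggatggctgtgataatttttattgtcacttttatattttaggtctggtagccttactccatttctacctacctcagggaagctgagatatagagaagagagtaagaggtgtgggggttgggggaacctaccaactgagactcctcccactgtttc
Klf5, chr14:99352840-99353139: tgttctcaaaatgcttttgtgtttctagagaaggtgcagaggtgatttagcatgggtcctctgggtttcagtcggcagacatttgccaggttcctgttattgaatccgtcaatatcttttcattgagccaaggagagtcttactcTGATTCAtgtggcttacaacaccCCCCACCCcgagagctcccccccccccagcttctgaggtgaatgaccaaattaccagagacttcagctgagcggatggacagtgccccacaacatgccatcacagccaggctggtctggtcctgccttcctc

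Neither the Abra nor the Irak3 window held a match. The Nodal window held a SOX match at position 124 and an E box at 166, counted from 1 at the left end. The Nkd1 window held an E box at 2 and an OTX2 match at 42, the Wnt3 window an E box at 59, the Car4 window an OTX2 match at 19, and the Klf5 window an AP-1 match at 146 and a KLF match at 169. The Abra region lay 13.2 kb from its start site and the Irak3 region in an intron of that gene. The Nodal, Nkd1, Car4 and Klf5 regions were intergenic, and the Wnt3 region lay in an intron of Nsf.

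The H3K4me1 values chose the members and are given as a description only. Their median H3K4me1 level (log2) was 5.70 in formative DKO and 7.17 in formative WT cells, and 6.06 in naive DKO and 6.44 in naive WT cells. The median difference, DKO minus WT, was -1.34 in formative and -0.49 in naive cells. The naive difference was above -0.5 at 50.5% of members and above 0 at 20.9%, so many members also had somewhat less H3K4me1 in naive DKO cells. In formative cells 35.3% were at -1.5 or below and 11.2% at -2 or below, with -6.22 as the lowest value. Between states, the median change in H3K4me1, formative minus naive, was -0.31 in DKO and 0.65 in WT cells, against 0.00 and -0.27 in the set that lost it in neither state. The 3 members just inside the threshold lay near Mir692-1, Dnaja2 and Siglec15, with formative differences at the threshold to within rounding, and their H3K27ac differences were -1.90, -0.38 and -0.86. The 3 regions just outside lay near Prkcd, Lpo and Fgd5, also at the threshold to within rounding, and their H3K27ac differences were -2.59, -3.42 and -1.69.

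H3K27ac was lower in formative DKO than in formative WT cells at most of these regions. The median level over the 6382 members was 6.80 in formative DKO and 8.35 in formative WT cells. Of the 5698 members above 0 in all 4 H3K27ac columns, 3363 (59.0%) were at least 2-fold lower in DKO and 200 (3.51%) higher by as much, with a median log2 difference of -1.28. Over all 105643 regions above 0 in the 4 columns, 39.3% were lower and 11.2% higher by that measure, with a median of -0.63. The interquartile range of the members was -2.21 to -0.46, and 825 (14.5%) had a difference at or above 0, against 31.6% of all regions. The 684 members left out had a 0 in formative DKO at 218, in formative WT at 6, in naive DKO at 241 and in naive WT at 328.

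The comparison sets had smaller shares than the members in formative cells. The share at least 2-fold lower was 53.5% in the set that lost H3K4me1 in both states, 39.7% in the set that lost it in naive cells only and 38.5% in the set that lost it in neither. Their medians were -1.1, -0.70 and -0.63. Intronic and intergenic members differed little, with 58.4% and 59.9% at least 2-fold lower, although in the set that lost it in neither these shares were 36.2% and 46.0%. By distance from the start site the members' share was 57.9% at 5 to 20 kb, 58.6% at 20 to 50 kb and 61.4% at 50 to 100 kb, against 33.2%, 40.6% and 47.5% in the set that lost it in neither.

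**Figure D1:**
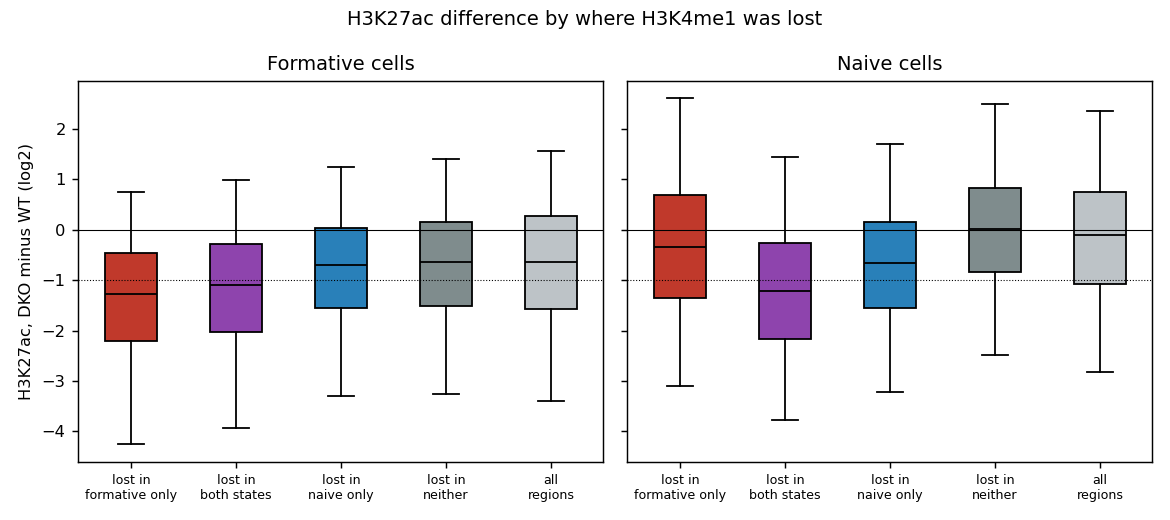
H3K27ac difference, DKO minus WT (log2 of the authors' pooled values), in formative cells on the left and naive cells on the right, by where H3K4me1 was lost; lines in boxes are medians, boxes the interquartile range and whiskers the 5th to 95th percentiles over regions, and the dotted line marks a 2-fold lower value. The members, on the far left of each panel, had a median of -1.28 in formative and -0.34 in naive cells, while the set that lost H3K4me1 in both states had -1.1 and -1.22.

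In naive cells the members were closer to the background. There 1886 (33.1%) were at least 2-fold lower in DKO and 1090 (19.1%) higher, with a median of -0.34, against 26.3% and 19.2% of all regions and a median of -0.10. In the set that lost H3K4me1 in both states 56.5% were at least 2-fold lower in naive cells, in the naive-only set 39.5% and in the set that lost it in neither 21.5%. Taking each region's formative difference minus its naive difference, 48.9% of members were below by at least 2-fold and 15.7% above, with a median of -0.95, against 36.3% and 19.5% of all regions and a median of -0.39. Among members above the median level it was -0.21 with 29.7% below, and with median centring -0.47. In the reported values the same median was 0.11 in the both-states set, -0.05 in the naive-only set and -0.57 in the set that lost it in neither. Combining both states, 2166 members (38.0%) were at least 2-fold lower in formative cells only and 1197 (21.0%) in both. A further 689 (12.1%) were lower in naive cells only and 1646 (28.9%) in neither. Over all regions these shares were 25.2%, 14.1%, 12.3% and 48.5%, so the share lower in naive cells only was at the background.

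The formative difference moved with the width of a region, and the members were narrower than the rest. Their median width was 964 bases, against 1078 in the set that lost H3K4me1 in neither state. The pooled level fell with width far more steeply in formative WT (Spearman rho -0.77 over all 105643 regions) than in formative DKO (-0.30), naive DKO (-0.23) or naive WT cells (-0.22). In the narrowest of 6 width bins 71.8% of members were at least 2-fold lower in formative DKO, and in the widest 46.0%. In the set that lost it in neither the shares were 58.4% and 18.8%, and over all regions 58.7% and 20.3%. Within each of the 6 bins the members' share was the higher one, and the gap to the set that lost it in neither was wider in broad regions than in narrow ones. In the both-states set the shares were 68.0% in the narrowest bin and 41.9% in the widest. In bin 5 that set had 51.1% and the members 51.2%, so at like width the members lay only a little above the both-states set. After centring on all regions of the same width decile, a setting added after the values were seen, the members' median was -0.58 with 37.4% at least 2-fold lower and 10.1% higher, against 22.6% and 22.1% of all regions.

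**Figure D2:**
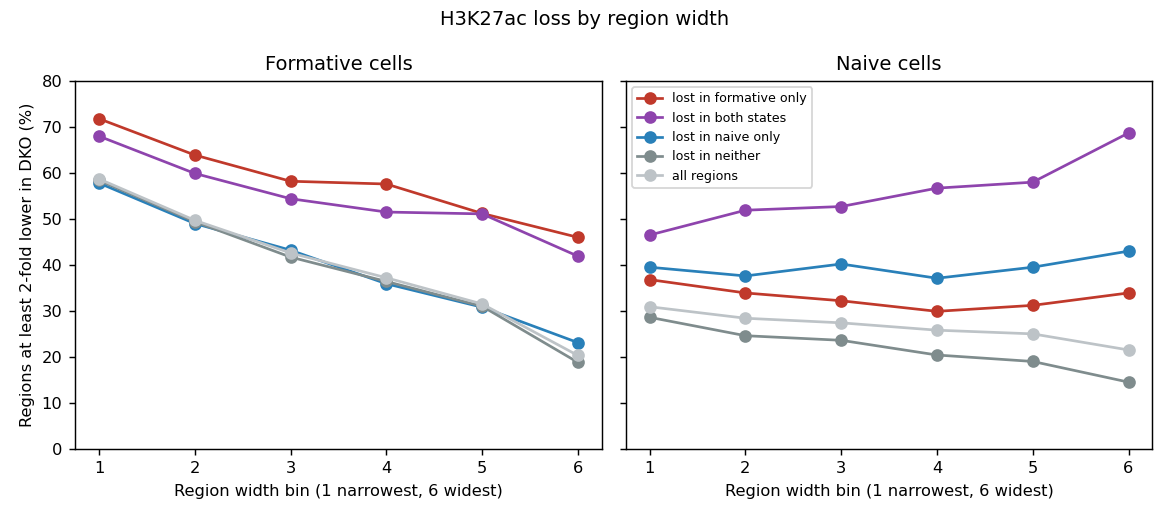
Share of regions at least 2-fold lower in DKO for H3K27ac (%), in formative cells on the left and naive cells on the right, by width bin from 1, the narrowest, to 6, the widest; each line is a set of regions. In formative cells the members' share was 71.8% in bin 1 and 46.0% in bin 6, above the set that lost H3K4me1 in neither state (58.4% and 18.8%), and in naive cells it was 36.8% and 33.9%, against 28.6% and 14.5%.

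The scaling between groups is not stated, and it sets these counts. With each column centred on its median, 35.6% of members were at least 2-fold lower in formative DKO and 10.6% higher, with a median of -0.51, and all regions were at 21.1% and 25.7%. With quantile normalization 39.2% were lower and 11.0% higher, against 23.2% and 26.1%. With columns scaled to promoters the members' median was -1.91, against -1.26 over all regions. In each of these scalings, and with width centred, the members' median lay below that of all regions and below those of the 3 comparison sets. Among the 1895 members above the median level 33.9% were at least 2-fold lower in formative DKO and 7.02% higher, with a median of -0.60. All regions and the comparison sets were not counted above that level, so a difference from them there was not tested.

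The members were also binned by the depth of the H3K4me1 loss, which the rule used, as a description. In 5 bins from the shallowest loss to the deepest, at most -3, the share at least 2-fold lower was 52.3%, 57.5%, 65.0%, 75.7% and 76.7%, the last over 43 members only. The median width fell along the same bins, with 1074 bases in the shallowest and 637 in the deepest, so depth of loss and width moved together, and the part of width was not tested. Across the 5698 members Spearman's rho between the H3K4me1 and H3K27ac differences was 0.17 in formative and 0.13 in naive cells, and over 67020 eligible regions it was 0.17 and 0.25, a weak relation from which nothing is read. Just inside the threshold, from -1.1 to -1, 53.6% of 1021 members were at least 2-fold lower, and just outside, from -1 to -0.9, 46.9% of 1179 regions.

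WT cells gained H3K27ac at members more often than they lost it on leaving the naive state. This is the comparison with a replicated test, the authors' DiffBind analysis of 2 formative against 2 naive WT libraries. Of all 6382 members, 2106 (33.0%) rose and 639 (10.0%) fell at a DiffBind adjusted p under 0.05 in the authors' deposited table, against 20.8% and 15.8% of all regions. In the authors' deposited table the both-states set had 15.5% that rose and 26.0% that fell, and the naive-only set 12.0% and 21.9%. By the authors' deposited table, of the set that lost H3K4me1 in neither state 23.2% rose and 11.9% fell, so there too rises outnumbered falls. Members were 13.4% of the 15675 eligible regions that rose in the authors' deposited table, and 8.97% of eligible regions in all. In the authors' deposited table, members that rose had a median log2 fold of 3.38 and those that fell one of -2.19. By the pooled values alone, 56.2% of the 5698 members were at least 2-fold higher in formative than in naive WT cells and 13.0% lower, against 38.1% and 18.9% of all regions.

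Much of that gain was not seen in DKO cells. Of members that rose in WT, 1651 were above 0 in all 4 columns, and their median change, formative minus naive, was 0.38 in DKO and 2.98 in WT cells. Past 2-fold, 29.5% were higher in formative than in naive DKO cells and 13.7% lower, against 25.9% and 12.1% of all regions that rose and 16.6% and 17.9% of all regions. The WT libraries chose these regions, which enlarges the WT change, and in the set that lost H3K4me1 in neither state the same medians were 0.29 in DKO and 2.50 in WT. At the 625 members that fell in WT the median change was -0.89 in DKO and -2.21 in WT cells, and 44.0% were at least 2-fold lower in DKO, against 31.9% of all regions that fell. Over all 5698 members the DKO change had a median of 0.07, with 23.9% at least 2-fold higher and 20.3% lower.

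The formative difference and the WT change share the formative WT column, so they are not independent. Of the 1651 members that rose in WT, 75.3% were at least 2-fold lower in formative DKO than in formative WT cells, against 61.0% of all regions that rose. At the 625 that fell the shares were 18.9% lower and 19.2% higher, against 13.4% and 37.8% of all regions that fell. At the 3422 members with no call 58.5% were lower and 1.99% higher, against 39.7% and 7.26% of all regions with no call. Members that fell in WT had a median difference of 0.02 in formative and -1.38 in naive cells, against 0.62 and -0.89 over all regions that fell. The naive difference shares the naive WT column with the call, so it is not independent of it either.

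**Figure D3:**
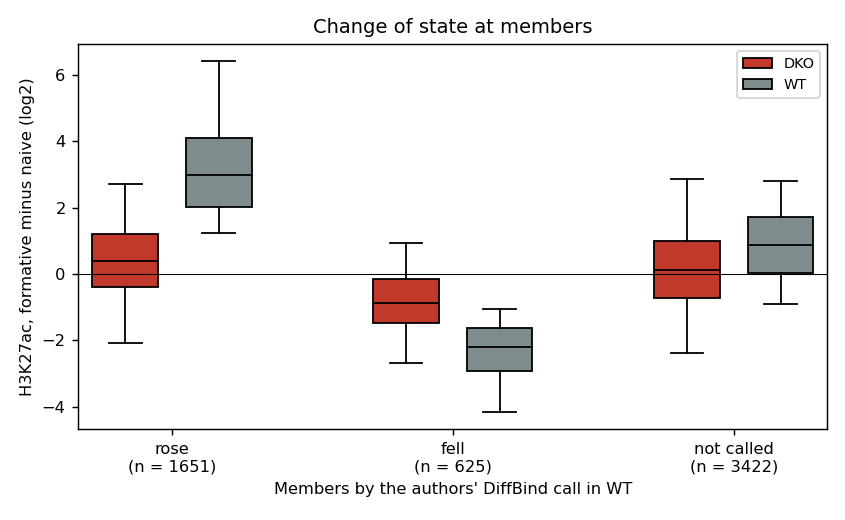
Change in H3K27ac, formative minus naive (log2 of the pooled values), at members grouped by the authors' DiffBind call in WT, with DKO boxes left of WT boxes; lines are medians, boxes the interquartile range and whiskers the 5th to 95th percentiles. Members that rose in WT had medians of 0.38 in DKO and 2.98 in WT cells, and members that fell had -0.89 and -2.21.

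The regions with the lowest formative difference had almost no signal left in formative DKO cells. They were the 8 lowest of 3006 members that were at least 500 bases wide, above 0 in all 4 columns and above the members' median in formative WT signal, taken 1 per gene. The Abra region had pooled levels of 0.41 in formative DKO, 9.58 in formative WT, 8.15 in naive DKO and 10.16 in naive WT cells, so formative DKO alone was near 0. The Dleu2 region had 1.24, 9.51, 7.57 and 6.79 in the same order, the Tsnax region 1.91, 9.64, 6.83 and 5.48, and the Med13 region 1.31, 8.92, 7.13 and 6.16. At these 4 regions naive DKO cells had ample signal, and the naive difference was -2.02 near Abra, 0.79 near Dleu2, 1.35 near Tsnax and 0.97 near Med13. The other regions lay near Col27a1, Ptprj, Plb1 and Prom1, with formative differences of -7.52, -7.28, -7.22 and -7.20. Of these the Ptprj region was higher in naive DKO, by 1.36, while Col27a1, Plb1 and Prom1 had naive differences of -2.92, -1.47 and -3.63, so naive DKO was low there too. With a pooled level between 0.41 and 1.97 in formative DKO, the size of these differences rests on little signal. The central window of the Tsnax region was 91.0% repeat-masked, against a mean of 25.5% over members. Col27a1 encodes a fibrillar collagen and Prom1 a membrane glycoprotein of stem cells, and in formative DKO against WT cells their RNA folds were -1.05 and -2.05 in the authors' deposited table. For Dleu2, Tsnax, Med13 and Ptprj the authors' deposited table gives RNA folds of 0.14, 0.37, 0.43 and 0.66, so RNA was not lower at these 4.

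At the other end were regions with more H3K27ac in formative DKO cells in spite of less H3K4me1. The Irak3 region, in an intron of a gene that encodes a negative regulator of Toll-like receptor signalling, had 8.11 in formative DKO, 5.42 in formative WT, 8.30 in naive DKO and 9.08 in naive WT cells. It fell between states in WT by 3.74 in the authors' deposited table (DiffBind adjusted p = 2.33e-29), and its pooled DKO change was -0.19, so formative WT was the one low group. For Irak3 the authors' deposited table gives RNA folds of 0.79 in formative and -3.09 in naive DKO against WT cells. The Olfr90 region had 5.11 in formative DKO, 3.01 in formative WT, 6.79 in naive DKO and 7.17 in naive WT cells, so formative DKO lay between formative WT and the naive groups. The regions near 1110002J07Rik, Parva, Mllt3 and Vmp1 were higher in formative DKO by 2.15, 2.08, 2.05 and 2.04, and of these Parva and Mllt3 were higher in naive DKO as well, by 2.88 and 1.99.

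The members with the strongest evidence of a rise in WT were partly acetylated in DKO. The Idi2 region had 8.13 in formative DKO, 10.15 in formative WT, 6.43 in naive DKO and 6.0 in naive WT cells. It rose by 3.94 in WT in the authors' deposited table (DiffBind adjusted p = 2.35e-80) and its pooled DKO change was 1.70. Regions near Arrdc1, Chd6, Cpm and Adgrf4 rose in WT by 3.76, 3.01, 4.19 and 4.55 in the authors' deposited table, with DiffBind adjusted p from 9.25e-45 to 2.04e-23. Their DKO changes were 1.04, 0.54, 2.77 and 2.29, each below the WT value, and the gap has no test.

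Of the 5 members with the strongest evidence of a fall in WT, 1 lay near a gene of the naive pluripotency list, Klf5. Klf5 encodes a transcription factor of the naive state, and its member 54.3 kb from the start site had 4.00 in formative DKO, 3.43 in formative WT, 5.98 in naive DKO and 7.39 in naive WT cells. Both other Klf5 members also fell in WT, with log2 folds of -2.77 and -4.16 in the authors' deposited table (DiffBind adjusted p = 8.08e-26 and 8.79e-10), and all 3 were higher in formative DKO than in WT, by 0.57 to 1.40. The remaining regions of this kind lay near Mir7036b, Sik1 and Ranbp17, and near Olfr90 again. The Mir7036b and Sik1 regions had 4.82 and 4.74 in naive DKO against 8.15 and 8.10 in naive WT cells, so H3K27ac was lower in DKO in the naive state there. Their naive H3K4me1 differences were -0.83 near Mir7036b and -0.98 near Sik1, just short of the threshold.

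Most members near Wnt/beta-catenin genes had less H3K27ac in formative DKO cells. Of 146 eligible regions near these genes 21 (14.4%) were members, against 8.97% of all eligible regions, and they lay near 11 of 18 genes. Of the 18 above 0 in all 4 columns 14 were at least 2-fold lower in formative DKO and 0 higher, with a median of -1.59, and in naive cells 4 were lower and 3 higher. Over all regions 39.3% were lower and 11.2% higher in formative DKO, and over all members 59.0% and 3.51%. Of the 21, 8 rose and 0 fell in WT in the authors' deposited table, against 33.0% and 10.0% of all members. All gene lists were drawn up with earlier results of these data known, and some share genes.

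Nkd1, an inhibitor of Wnt signalling that is induced by the pathway, had 4 members, each lower in formative DKO, with differences from -4.33 to -1.84. Its lowest had 3.25 in formative DKO, 7.57 in formative WT, 4.86 in naive DKO and 2.74 in naive WT cells. That region rose by 5.10 in WT in the authors' deposited table (DiffBind adjusted p = 2.49e-07) and its pooled DKO change was -1.62, so formative WT stood alone as the high group. Lef1, a transcription factor of the pathway, had 3 intronic members with formative differences of -1.61, -1.52 and -0.59, and all 3 rose in WT in the authors' deposited table. Axin2, a negative regulator, had 2 members at -1.12 and -0.86, and Znrf3, a ubiquitin ligase that removes Wnt receptors, had 3 at -2.35, -0.90 and 0.61. T, the mesoderm factor Brachyury, had 2 neighbouring members. The wider had 5.26 in formative DKO, 9.51 in formative WT, 4.99 in naive DKO and 8.56 in naive WT cells, and the other was listed at 0 in formative DKO, against 9.31 in formative WT, and had 5.93 in naive DKO and 9.21 in naive WT cells. Both T members were thus low in DKO cells of both states, although the H3K4me1 loss passed the threshold in formative cells only.

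Primed and mesendoderm genes held members at the highest rate of the lists with at least 50 eligible regions, 11 of 50 (22.0%). Of 10 above 0 in all 4 columns 9 were at least 2-fold lower in formative DKO and 0 higher, with a median of -1.53. In naive cells 5 of the 10 were lower in DKO and 1 higher, with a median of -1.01, against -0.34 over all members. The lower H3K27ac near these genes was thus not confined to formative cells. Over all members 59.0% were lower and 3.51% higher, and over all regions 39.3% and 11.2%. Nodal, a ligand of the TGF-beta family, had 4 members within 15.0 kb of its start site. The lowest had 1.87 in formative DKO, 7.66 in formative WT, 7.28 in naive DKO and 7.74 in naive WT cells, and formative DKO was the one low group. Between states in WT it was not called by the authors' test, with a fold of -0.10 in the authors' deposited table (DiffBind adjusted p = 0.916). The other Nodal members had formative differences of -1.49, -1.14 and -0.32. Wnt3, a ligand needed for gastrulation, had 2 members. The one in an intron of Nsf had 6.71 in formative DKO, 8.78 in formative WT, 7.69 in naive DKO and 5.81 in naive WT cells, and it rose by 2.69 in WT in the authors' deposited table (DiffBind adjusted p = 0.000825). In DKO it was higher in the naive state than in the formative state by 0.98. Lefty2, an inhibitor of Nodal, had 2 members at -1.57 and -1.1, and Hand1 had 1 at -2.78. Their naive differences were -3.66 and -0.99 near Lefty2 and -1.05 near Hand1.

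Of the formative pluripotency list 29 of 164 eligible regions (17.7%) were members, near 13 of 27 genes. Of 26 above 0 in all 4 columns 15 were at least 2-fold lower in formative DKO and 1 higher, with a median of -1.20, a share close to that of all members (59.0%) and above that of all regions (39.3%). Of the 29, 14 rose and 3 fell in WT in the authors' deposited table, against 33.0% and 10.0% of all members. Car4, a carbonic anhydrase, had 6 members. The lowest of those above 0 in all 4 columns had 6.89 in formative DKO, 9.15 in formative WT, 5.80 in naive DKO and 6.75 in naive WT cells, and the 5 together ran from -2.27 to -1.19. Pou3f1, a POU factor of the formative state, had 2 members at -1.73 and -0.76, which rose in WT by 1.80 and 2.89 in the authors' deposited table (DiffBind adjusted p = 0.00103 and 0.000318), while the pooled changes were 2.20 and 2.51 in DKO and 1.67 and 3.16 in WT cells. The DKO change at Pou3f1 was thus above the WT value at one member and below it at the other. Dnmt3a, a DNA methyltransferase, had 3 members from -2.12 to -0.22, and Dusp6, a phosphatase that restrains ERK, had 2 at -1.71 and -1.38. Foxd3 held all members of this list that fell in WT. Its 3 members fell in WT, with log2 folds of -4.34, -3.56 and -3.02 in the authors' deposited table and DiffBind adjusted p from 1.05e-35 to 3.62e-10, and were higher in formative DKO than in WT by 0.51 to 1.31. In naive cells 2 of the 3 had DKO minus WT differences of -3.70 and -3.25. The Etv5 member was also higher in formative DKO, by 0.44, with a naive difference of -2.46, and a Sox4 member was higher by 0.28.

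Naive pluripotency genes held few members, 12 of 190 eligible regions (6.32%). Of these 12, 7 fell and 1 rose in WT in the authors' deposited table, against 10.0% and 33.0% of all members. Of 11 above 0 in all 4 columns 2 were at least 2-fold lower in formative DKO and 3 higher, with a median of -0.52. By that measure 59.0% of all members were lower and 3.51% higher, and 39.3% and 11.2% of all regions. Nr5a2, an orphan nuclear receptor of the naive state, had one of each. Its intronic member had 7.34 in formative DKO, 3.87 in formative WT, 7.40 in naive DKO and 9.64 in naive WT cells and fell by 6.02 in WT in the authors' deposited table (DiffBind adjusted p = 3.2e-12), while its pooled DKO change was -0.05. Its intergenic member had 8.57 in formative DKO, 10.22 in formative WT, 8.64 in naive DKO and 8.48 in naive WT cells, with formative WT as the high group. Nanog had 2 members at -0.79 and -0.13, and neither was called in WT by the authors' test (DiffBind adjusted p = 0.763 and 0.75 in the authors' deposited table).

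Members near signalling genes of the LIF and ERK pathways were mixed. The LIF/STAT3 list had 16 members among 158 eligible regions (10.1%), of which 8 were at least 2-fold lower in formative DKO and 2 higher. Over all members the shares were 59.0% lower and 3.51% higher, and over all regions 39.3% and 11.2%. Lif, the cytokine itself, had 3 members from -1.93 to -0.99. Lifr, its receptor, had 2. The lower had 3.78 in formative DKO, 8.03 in formative WT, 2.88 in naive DKO and 8.24 in naive WT cells, so it was low in DKO cells of both states. Its central window was 69.7% repeat-masked, against a mean of 25.5% over members. Sgk1, a kinase, had 4 members from -2.33 to -0.98 in formative cells, and 2 of these were higher in naive DKO by 4.10 and 6.41. Naive WT was at 3.91 and 0.43 there, so the size of the larger difference rests on little naive WT signal. The ERK response list had 11 members among 130 (8.46%). Of these, 5 of 10 above 0 in all 4 columns were at least 2-fold lower and 0 higher. In both lists the share lower thus lay between those of all regions and of all members. Spred2, an inhibitor of the pathway, had a member with 3.69 in formative DKO, 7.70 in formative WT, 5.76 in naive DKO and 1.49 in naive WT cells. That member rose by 6.71 in WT in the authors' deposited table (DiffBind adjusted p = 2.51e-06) and its pooled DKO change was -2.07, opposite in sign, without a test.

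Core pluripotency genes had 10 members among 115 eligible regions (8.70%), 6 of them at least 2-fold lower in formative DKO and 0 higher. This was close to all members, with 59.0% lower and 3.51% higher, while all regions had 39.3% and 11.2%. A Dppa4 member had 3.84 in formative DKO, 8.71 in formative WT, 3.60 in naive DKO and 4.70 in naive WT cells. It rose by 4.07 in WT in the authors' deposited table (DiffBind adjusted p = 0.00463). Its central window was 92.7% repeat-masked, against a mean of 25.5% over members. A member near Sall4, a zinc finger factor, had 8.15 in formative DKO, 8.08 in formative WT, 7.76 in naive DKO and 3.38 in naive WT cells. Naive WT was the one low group there, and DKO cells of both states were at the formative WT level. Genes of H3K4 methylation and H3K27 acetylation had 7 members among 199 (3.52%), of which 4 were lower and 1 higher.

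Lists that mark other cell types were small. For comparison, 59.0% of all members were at least 2-fold lower in formative DKO and 3.51% higher, and 39.3% and 11.2% of all regions. Primitive endoderm genes had 11 members among 79 eligible regions (13.9%), with 6 of 10 at least 2-fold lower in formative DKO and 2 higher. Lamb1, a laminin chain, had a member with 4.90 in formative DKO, 7.85 in formative WT, 5.02 in naive DKO and 5.57 in naive WT cells. Trophoblast genes had 7 of 56 (12.5%), with 3 lower and 2 higher, and the Tfap2c member had 7.33 in formative DKO, 5.49 in formative WT, 6.91 in naive DKO and 9.07 in naive WT cells. Neural genes had 1 member of 12, near Sox1, and fibroblast feeder genes 2 of 10, near Thy1 and Col1a2. RNA of Sox1 was at 2.49, of Col1a2 at 2.01 and of Thy1 at -2.82 in formative DKO against WT cells in the authors' deposited table. In the same comparison RNA was at least 2-fold lower at 0 and higher at 2 of 6 primitive endoderm genes with members, Gata6 (1.02) and Col4a2 (1.85), and lower at 0 and higher at 2 of 5 trophoblast genes, Gata2 (1.17) and Hand1 (1.21), in the authors' deposited table. Of all genes 5.05% were lower and 5.87% higher in the authors' deposited table, and the Gata6 fold only just passed the threshold. The part of other cell types in the H3K27ac differences was not tested. In bulk cells, a change in the share of a cell type and a change within cells cannot be told apart.

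**Figure D4:**
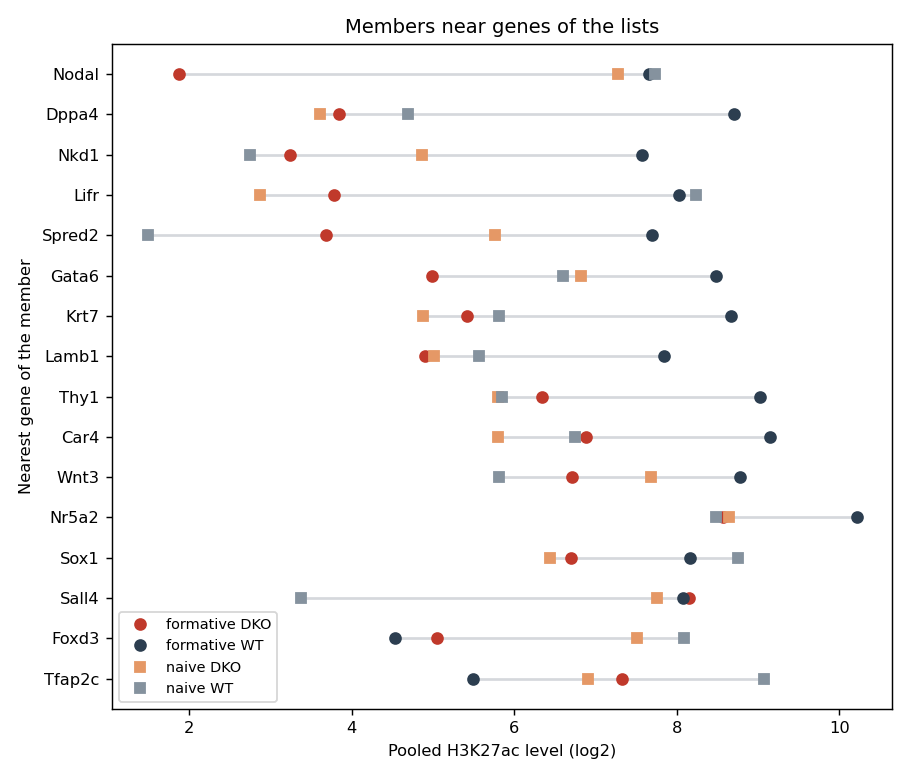
Pooled H3K27ac level (log2) of members that stood for the lists, those with the smallest DiffBind adjusted p and with the lowest formative difference. The Klf5 member, already named among those that fell in WT, is not drawn. Each row is 1 region, ordered by formative difference with the most negative at the top. Symbols give formative DKO, formative WT, naive DKO and naive WT cells. At Nodal formative DKO had 1.87 and formative WT 7.66, while at Tfap2c, in the bottom row, formative DKO had 7.33 and formative WT 5.49.

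The members lay near 4171 genes, of which 2881 had 1 member, 1290 at least 2 and 103 at least 5, and 1505 also had a region that lost H3K4me1 in both states. Gm21119 had most, with 13 members among 56 eligible regions, all at least 2-fold lower in formative DKO, from -3.58 to -1.35. By that measure 59.0% of all members were lower and 3.51% higher, and 39.3% and 11.2% of all regions. The central windows of 11 of these 13 shared an exact run of 50 bases with another member's window, against 434 of all 6382 (6.80%), so reads may be split among copies and the 13 values are uncertain. Kremen1, a receptor that restrains Wnt signalling, had 11 members among 22 eligible regions. Of these 11, 9 were above 0 in all 4 columns, 7 at least 2-fold lower and 0 higher. None of the Kremen1 or Serinc5 members shared such a run. Itpr1, a calcium channel of the endoplasmic reticulum, had 10 members among 26 eligible regions, all at least 2-fold lower, from -3.80 to -1.13. Serinc5, a membrane protein, had 10 among 23, of which 8 were at least 2-fold lower. Of these 10, 8 rose in WT in the authors' deposited table, against 33.0% of all members and 20.8% of all regions. Sipa1l1, Lrrc4 and Zfp423 had 11, 10 and 10 members among 44, 38 and 82 eligible regions, with medians of -1.07, -2.01 and -1.40. None of these genes had a member at least 2-fold higher. Members were 8.97% of all eligible regions, so a gene's count depends in part on how many of its regions were eligible. Zfp423 had the most eligible regions of the genes named here.

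RNA of the nearest genes was near the background for DKO against WT cells, while the share of genes higher in formative than in naive cells was above it. The authors' deposited table gives RNA folds, from libraries outside this series, for 2370 of the 4171 genes. In formative DKO against WT cells 6.67% of them were lower by 2-fold or more and 5.61% higher in the authors' deposited table, against 5.05% and 5.87% of all 9781 genes. In naive DKO against WT cells the shares were 11.4% lower and 10.1% higher in the authors' deposited table, against 11.2% and 8.54%. Between states, 24.2% were at least 2-fold higher in formative than in naive DKO cells and 24.0% in WT cells in the authors' deposited table, against 18% and 17.1% of all genes. The shares at least 2-fold lower were 5.53% in DKO and 8.78% in WT cells in the authors' deposited table, against 5.15% and 9.65%. Genes with at least 5 members stood further out, with 34.8% higher in DKO and 48.5% in WT over 66 genes in the authors' deposited table. In formative cells 7 of those 66 genes (10.6%) were lower by 2-fold or more and 4 (6.06%) higher in DKO against WT cells in the authors' deposited table.

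**Figure D5:**
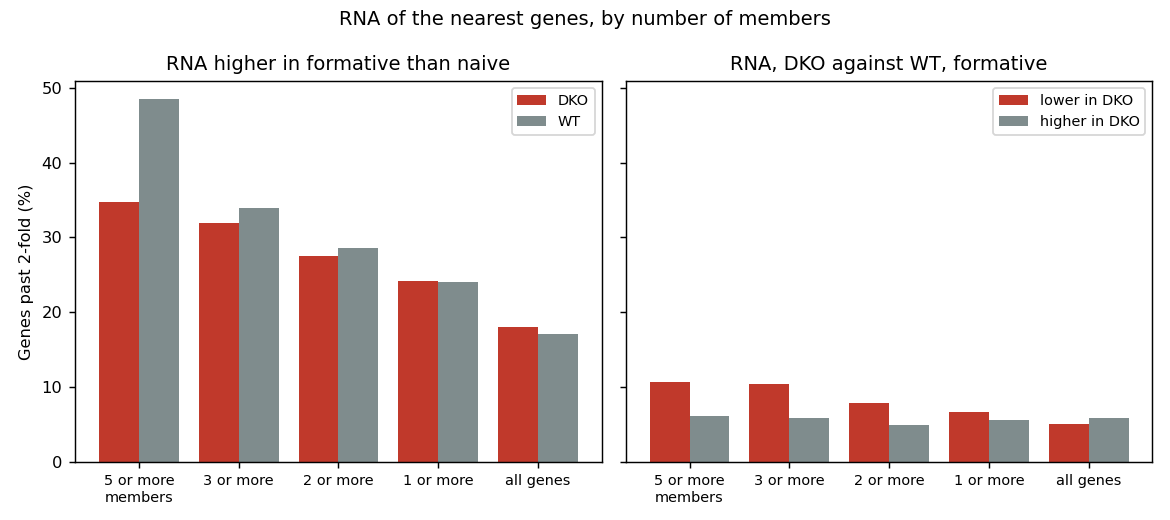
Share of genes past 2-fold in RNA (%), by the number of members near the gene, from the authors' deposited folds. The left panel gives genes higher in formative than in naive cells, with DKO left of WT, and the right panel genes lower or higher in formative DKO against WT cells. Genes with 5 or more members were higher in the formative state at 34.8% in DKO and 48.5% in WT, against 18% and 17.1% of all genes.

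The Wnt and mesendoderm lists held genes with lower RNA and genes without. In formative DKO against WT cells RNA was at least 2-fold lower at 5 of 10 Wnt/beta-catenin genes with members and higher at 0 in the authors' deposited table, against 5.05% and 5.87% of all genes, on a list drawn up with such results known. In the authors' deposited table these were T at -3.23, Wnt3 at -2.04, Wnt8a at -1.98, Axin2 at -1.53 and Sp8 at -1.23. Of 5 primed and mesendoderm genes 3 were lower and 1 higher in the authors' deposited table, with Nodal at -1.77, Hand1 at 1.21 and Lefty2 at -0.15. Nkd1 was at -0.76, also in the authors' deposited table. In the naive state T, Nodal and Axin2 were at -0.24, 0.45 and 0.10 in DKO against WT cells in the authors' deposited table, and Wnt3 was at 4.11 there in the authors' deposited table. In formative DKO the authors' deposited table also gave lower RNA for Fgf15 (-1.15) and Serinc5 (-1.31). Formative genes such as Car4, Pou3f1 and Dusp6 were at 0.43, 0.47 and -0.15 in the authors' deposited table although their members were lower in H3K27ac. In formative DKO against WT cells RNA was lower at 0 and at least 2-fold higher at 2 of 8 LIF/STAT3 genes with members in the authors' deposited table. These were Lif (1.01) and Lifr (1.28), and Gata6 was at 1.02, in the authors' deposited table. Lif, Lifr and Gata6 each had a member at least 2-fold lower in H3K27ac in formative DKO. Members with less H3K27ac thus lay near genes with lower RNA, near genes with higher RNA and near genes with neither.

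The members were spread over the genome. Intergenic regions were 40.6% of members, against 45.1% in the both-states set, 23.5% in the naive-only set and 24.6% in the set that lost H3K4me1 in neither. Members were 7.14% to 10.8% of eligible regions over the 19 autosomes, 13.2% on the X chromosome and 17.0% on the Y chromosome, where they numbered 8. The members' formative median ran from -1.63 to -1.08 over the autosomes and their naive median from -0.60 to -0.05. The lowest autosomes in both states were chromosome 8, at -1.63 and -0.52, and chromosome 6, at -1.51 and -0.60. On the X chromosome the 2 medians were -1.28 and -0.48, and on the Y chromosome -3.61 and -2.14. The cause of these differences between chromosomes was not tested. Their central windows had a median GC content of 47.7%, against 49.0% over all regions, and 18% were repeat-masked over most of their length, against 18.9%.

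Short motifs of pluripotency and signalling factors were counted in the central 300 bases on both strands, as exact letters. TEAD (CATTCC) was in 18.2% of members and 15.6% of all regions, ZIC (CAGCAGG) in 12.7% and 11.2%, and the forkhead motif (TGTTTAC) in 5.53% and 4.12%. KLF (CCCCACCC) was in 6.93% and 5.98%, AP-1 (TGANTCA) in 10.1% and 8.89%, TCF/LEF (ATCAAAG) in 4.97% and 4.07%, SOX (CATTGTT) in 4.25% and 3.85%, and the POU octamer (ATGCAAAT) in 1.91% and 1.46%. OTX2 (GGATTA) was in 11.6% and 11.0%, the E box (CAGGTG) in 25.7% and 26.0%, and the GRHL motif (AACCNGTT, which includes AACCGGTT) in 2.62% and 2.29%. These shares were within 1.5 times those of all regions, and no test was made. Over eligible regions OTX2 was in 12.1% and the E box in 25.3%, so both differences had the opposite sign there. In the both-states set TEAD was in 19.5%, AP-1 in 10.9%, TCF/LEF in 5.28%, SOX in 4.75% and POU in 2.24%, each above the members' share. The AACCGGTT form alone was in 12 members (0.188%), against 0.0901% of all regions. The ESRRB motif (TCAAGGTCA) was in 0.83% of members, 0.938% of all regions and 1.88% of the naive-only set. At least 1 motif was in 66.9% of members and 63.9% of all regions.

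Among members the motifs separated H3K27ac little. With an E box 61.9% of 1472 members were at least 2-fold lower in formative DKO and without one 58.0% of 4226. With a TCF/LEF motif the share was 62.2% of 283 members and without one 58.9%, and with an AP-1 motif it was 53.3% of 576 and without one 59.7%. The few members with an ESRRB motif, 47 above 0 in all 4 columns, differed most, with 46.8% lower and 12.8% higher. Of these 47, 34.0% fell and 14.9% rose in WT in the authors' deposited table, against 10.8% and 29.1% of members without the motif. A match says only that the letters are in the window.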

How the data were processed

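The deposited table holds 1 row per region and 47 columns. The H3K27ac and H3K4me1 columns are pooled log2 values deposited by the authors, 1 per group, with scaling not stated, and the DiffBind columns give the authors' log2 fold, p-value and adjusted p-value over all regions for WT. Trim Galore, Bowtie2, SEACR, DiffBind, deepTools and build mm10 are named in the submitters' processing notes, with versions not given in the sources used here. H3K4me1 and RNA values come from libraries outside this series. The H3K4me1 columns served the rule and descriptions of the loss, and 8 RNA level and 6 RNA fold columns were not used.

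Differences of pooled values were computed per region with Python 3.11.15 and pandas 2.3.3, over the 105643 regions above 0 in all 4 H3K27ac columns. Regions with an absolute log2 difference of 1 or more count as higher or lower, with no test, and steps were tested on simulated data. The level falls with width, so only differences within a region are compared, and those that use formative WT still move with width. The choice of named regions used the level plus 2 times log2 of the width. The replicate libraries were cultured and prepared separately, per the series text. Named regions were the 8 lowest and 6 highest formative differences, the 5 that rose and 5 that fell with the smallest DiffBind adjusted p, and per list the members with the smallest adjusted p and the lowest formative difference. Genes with the most members (ties kept) were added, and other members of list genes were named after their values were seen. Some results that this rule names are not reported here. A gene is the one with the nearest start site in the table. The members, lists and rules were chosen with earlier results of these data known. Sequences came from the RefSeq genome of build GRCm38.p6, the same build as mm10. Alternatives were other scalings, thresholds, filters and window sizes.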

Additional observations from a re-analysis of the deposited data

How the results depend on the processing

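Over 36 results and 188 alternatives, 143 alternative values stayed within 1.5 times the reported share or within 0.5 (log2) of the reported median, 44 moved and 1 changed sign. For the formative difference, median centring gave a median of -0.51 with 35.6% lower and 10.6% higher, quantile normalization -0.59 with 39.2% and 11.0%, regions above the median level -0.60 with 33.9% and 7.02%, and width-decile centring, added after the data were seen, -0.58 with 37.4% and 10.1%. Scaling to promoters gave a formative median of -1.91 with 1.16% higher, and a naive median of -0.92 with 11.8% higher. Above the median level 11.1% were higher in naive DKO, the difference between states had a median of -0.21 with 29.7% lower, and the DKO state change had the opposite sign, a median of -0.057, with 13.1% higher. At a log2 threshold of 1.5, 1.49% were higher in formative DKO, 22.0% lower and 12.5% higher in naive DKO, 10.4% higher in the difference between states, and 12.2% lower and 15.3% higher in the DKO state change. RNA at that threshold gave 2.78% lower and 2.03% higher in formative DKO, 6.58% and 5.19% in naive DKO, 5.23% lower in the WT state change, and 3.04% lower and 13.7% higher in the DKO one. With formative H3K4me1 at most -1.5 there were 2250 members, of which 1.82% were higher in formative DKO and 5.96% fell in WT. With naive H3K4me1 over -0.5 there were 3226, of which 5.73% fell in WT. The pooled WT difference without a p called 56.2% higher. Windows of 200 bases held KLF at 4.54%, OTX2 at 7.69%, POU at 1.27%, SOX at 2.82% and TCF/LEF at 3.24%, fewer by construction. The cause of the other moves was not tested. Centring the H3K4me1 columns first would give 6775 members, of which 4512 (70.7% of the members) are shared. No paired analysis was possible because the pooled columns carry no replicate numbers, and for the same reason no replicate could be left out. Depth is unknown and no replicate spread can be given.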
